A study of Mus musculus with 6 samples.

Results

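The genes described here are the matrix metalloproteinases (MMP), the ADAMTS proteases, the ADAMTS-like (ADAMTSL) proteins and the tissue inhibitors of metalloproteinases (TIMP) of mouse dermal cells with or without Nelfb. Members were taken by symbol and by their protein-coding label from the deposited genes, which gave 42 of 17924, namely 15 Mmp, 18 Adamts, 5 Adamtsl and 4 Timp genes. Dermal fibroblasts from the dorsal skin of newborn (P0) mice were kept for 14 days in adipocyte differentiation medium, and RNA-seq was made from 3 biological replicates of each genotype. Control (CTL) mice were Nelfb fl/wt or Nelfb wt/wt and Nelfb-/- mice were Nelfb fl/fl, and all of them carried Pdgfra-Cre on a C57BL/6J background. Nelfb encodes a subunit of the negative elongation factor, which holds RNA polymerase II near the start of genes. The Pdgfra promoter drives the Cre in fibroblast and adipocyte precursors, so that cells of other lineages in a dermal culture can keep Nelfb. The labels do not say which of both CTL genotypes a library came from.

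MMP and ADAMTS proteins are zinc proteases that are made with a propeptide and become active once it is removed or displaced, often by furin-like convertases or by plasmin. Secreted MMPs cut collagens, gelatin, elastin and other matrix proteins, membrane-type MMPs do so at the cell surface, and ADAMTS proteins cut large proteoglycans such as aggrecan and versican or trim procollagens. ADAMTSL proteins resemble ADAMTS proteins but lack the protease domain. TIMPs bind the active site and block it, Timp2 also takes part in the activation of Mmp2 by Mmp14, and Timp3 stays in the matrix and blocks several ADAMTS proteins as well. Fat cell precursors rebuild a fibrillar matrix into a basement membrane as they differentiate, and Mmp14 is known to be needed for this in white fat.

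Values are in CPM, a count scaled to 1e+06 reads on the listed genes, and those of a group are given in the order of replicates 1, 2 and 3. The libraries held 17.2 to 29.4 M reads (M, 1e+06) on the listed genes, so that 3 reads, taken as the floor of detection, were worth 0.102 to 0.175 CPM. Limma was run on log2 values of the genes that averaged 10 reads (0.448 CPM) or more, and a gene counted as called, risen or fallen, where its adjusted p did not exceed 0.05 and its fold was 2 or larger. Nelfb itself had a log2 fold change (here log2 change, Nelfb-/- relative to CTL) of -1.99 (limma, SE 0.22, adjusted p = 0.00502). CTL 3 and Nelfb-/- 1 stood apart from the other libraries of their groups on the second principal component, which held 27.7% of the variance after 59.9% on the first. Genes of adipocytes were abundant in both groups, with a summed level of 21940 to 36320 CPM over 7 markers in the CTL libraries and, in Nelfb-/- libraries, 13960 to 22030 CPM. The sum over 7 fibroblast markers was 2920, 2607 and 9363 CPM across the CTL libraries against 4683, 13930 and 15610 CPM across the Nelfb-/- libraries, so that CTL 3 lay above Nelfb-/- 1. In a culture of several cell types, fewer cells of a type and less RNA per cell cannot be told apart.

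Promoter sequences are shown first for 2 sets of genes on which the results turn. The RefSeq promoter table (GRCm38.p6) held 29 windows for 27 of the 42 members, each from 250 bases before to 50 bases after an annotated start. From each window 130 bases are printed, 120 before the start and 10 after it, read 5′ to 3′ on the strand of the gene. Capitals mark the letters TGANTCA (the AP-1 element), TATAAA (the TATA box) and GGGCGG (the GC box), each searched on both strands. The first set is a run of neighbouring Mmp genes on chromosome 9, all on the plus strand, that differed in their change. Their windows are chr9:7272394-7272523 for Mmp13, chr9:7344277-7344406 and chr9:7347254-7347383 for both starts of Mmp12, chr9:7445702-7445831 for Mmp3, chr9:7558309-7558438 for Mmp8 and chr9:7571276-7571405 for Mmp27.
Mmp13: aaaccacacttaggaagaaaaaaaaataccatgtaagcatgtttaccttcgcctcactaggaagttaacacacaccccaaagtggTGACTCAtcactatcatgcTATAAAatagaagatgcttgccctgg
Mmp12, first start: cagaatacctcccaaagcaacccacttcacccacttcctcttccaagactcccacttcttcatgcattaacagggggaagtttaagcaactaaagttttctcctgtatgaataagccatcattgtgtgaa
Mmp12, second start: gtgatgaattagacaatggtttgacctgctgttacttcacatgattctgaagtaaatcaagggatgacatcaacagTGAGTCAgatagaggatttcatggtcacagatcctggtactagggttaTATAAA
Mmp3: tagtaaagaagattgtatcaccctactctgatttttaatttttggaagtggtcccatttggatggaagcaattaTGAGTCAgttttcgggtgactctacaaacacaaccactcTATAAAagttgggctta
Mmp8: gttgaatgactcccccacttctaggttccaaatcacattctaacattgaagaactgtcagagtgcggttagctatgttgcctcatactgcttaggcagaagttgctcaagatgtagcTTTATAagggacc
Mmp27: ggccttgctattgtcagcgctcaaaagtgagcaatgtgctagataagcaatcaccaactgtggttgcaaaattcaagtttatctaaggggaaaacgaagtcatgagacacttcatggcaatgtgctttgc

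The second set holds the other members past the threshold that had a window, which are Timp1 (chrX:20870046-20870175, plus strand), Timp2 (chr11:118355402-118355531, minus strand) and Mmp15 (chr8:95352176-95352305, plus strand).
Timp1: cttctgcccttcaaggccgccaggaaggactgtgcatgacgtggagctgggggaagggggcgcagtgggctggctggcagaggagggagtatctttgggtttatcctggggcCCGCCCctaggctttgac
Timp2: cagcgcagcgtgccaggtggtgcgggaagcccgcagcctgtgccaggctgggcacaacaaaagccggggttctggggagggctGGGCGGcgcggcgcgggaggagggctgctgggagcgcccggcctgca
Mmp15: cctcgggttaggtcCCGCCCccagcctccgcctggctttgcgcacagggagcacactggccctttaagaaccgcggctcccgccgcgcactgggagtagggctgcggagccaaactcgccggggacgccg

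The AP-1 letters were found in 3 of the 29 windows of members, those of Mmp13, Mmp3 and the second start of Mmp12, where 7.81% of all 32851 windows and 5.41% of the windows of tested genes hold them. The TATA letters were found in 6 windows of members, against 13.6% of all windows and 7.65% of those of tested genes. Each window with the AP-1 letters also held the TATA letters, a pair seen in 1.54% of all windows and 0.643% of those of tested genes. In the second Mmp12 window the TATA letters lie after the annotated start. In the Mmp13 window the AP-1 letters begin 35 bases before the annotated start, in the Mmp3 window 46 bases before it and in the second Mmp12 window 44 bases before it. The GC box was found in 19 windows of members, and 35.7% of all windows and 60.2% of the windows of tested genes hold it. No window of the chromosome 9 genes held a GC box, whereas Timp1, Timp2 and Mmp15 each had 1. Such matches describe the letters and do not show that a factor binds there.

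Of the 42 members, 39 passed the filter on low values, and Mmp9, Adamts8 and Adamts19 did not. In limma 9 members rose in Nelfb-/- cells, which were Timp1, Timp2, Mmp8, Mmp15, Mmp16, Mmp17, Adamts4, Adamts5 and Adamts16, where 7.58% of the 16252 genes tested were called higher. Adamts15 was the 1 member that fell, where 3.64% of all genes tested were called lower. Of the tested members, 28 had a positive and 11 a negative log2 change, with a median of 0.57 beside 0.068 over all genes tested, and 54.6% of all genes tested had a positive one. The groups did not overlap at 15 members, with Nelfb-/- cells above CTL at 13 and below it at 2, where 38.1% of all genes tested did not overlap, 22% above and 16.1% below. A change of at least 2-fold, whatever its p, was seen upwards at 15 members and downwards at 4, beside 14% and 6.96% of all genes tested. All but 1 of the tested members passed the filter in both groups, and Adamts16 passed it only through the Nelfb-/- libraries. Over the 38 members that passed it in both groups, 8 rose and 1 fell, where 6.21% of the 15341 genes that passed it in both groups were called higher. With CTL 3 and Nelfb-/- 1 both left out, a choice made after seeing the data, 16 members were higher and 2 lower, beside 17.7% and 9.37% of genes tested. Without CTL 3 alone 13 were higher and 2 lower (10.4% and 4.75% of genes tested), and without Nelfb-/- 1 alone 10 were higher and 1 lower (7.74% and 4.38%). Without CTL 1 there were 3 higher and 0 lower (3.86% and 1.49%), without CTL 2 there were 2 and 1 (3.29% and 1.36%), without Nelfb-/- 2 there were 4 and 0 (3.86% and 1.97%) and without Nelfb-/- 3 there were 1 and 0 (1.79% and 0.839%).

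The same counts differed from family to family in their values, although a difference between families was not tested. The 4 Timp genes had a median of 1.21 on the log2 scale, and 2 of them rose, where 7.58% of all genes tested were called higher. The 14 tested Mmp genes had a median of 1.05, and 4 of them rose, 3 of which are of the membrane type. Among the 16 tested Adamts genes 3 rose and 1 fell, with a median of 0.19. Of these 3, Adamts16 passed the filter only through the Nelfb-/- libraries. Over the 15 Adamts genes that passed it in both groups 2 rose, beside 6.21% of all such genes. Limma called 0 of the 5 Adamtsl genes, and 2 of them, Adamtsl1 and Adamtsl5, had an unadjusted p under 0.05, where 32.5% of all genes tested did.

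**Figure D1:**
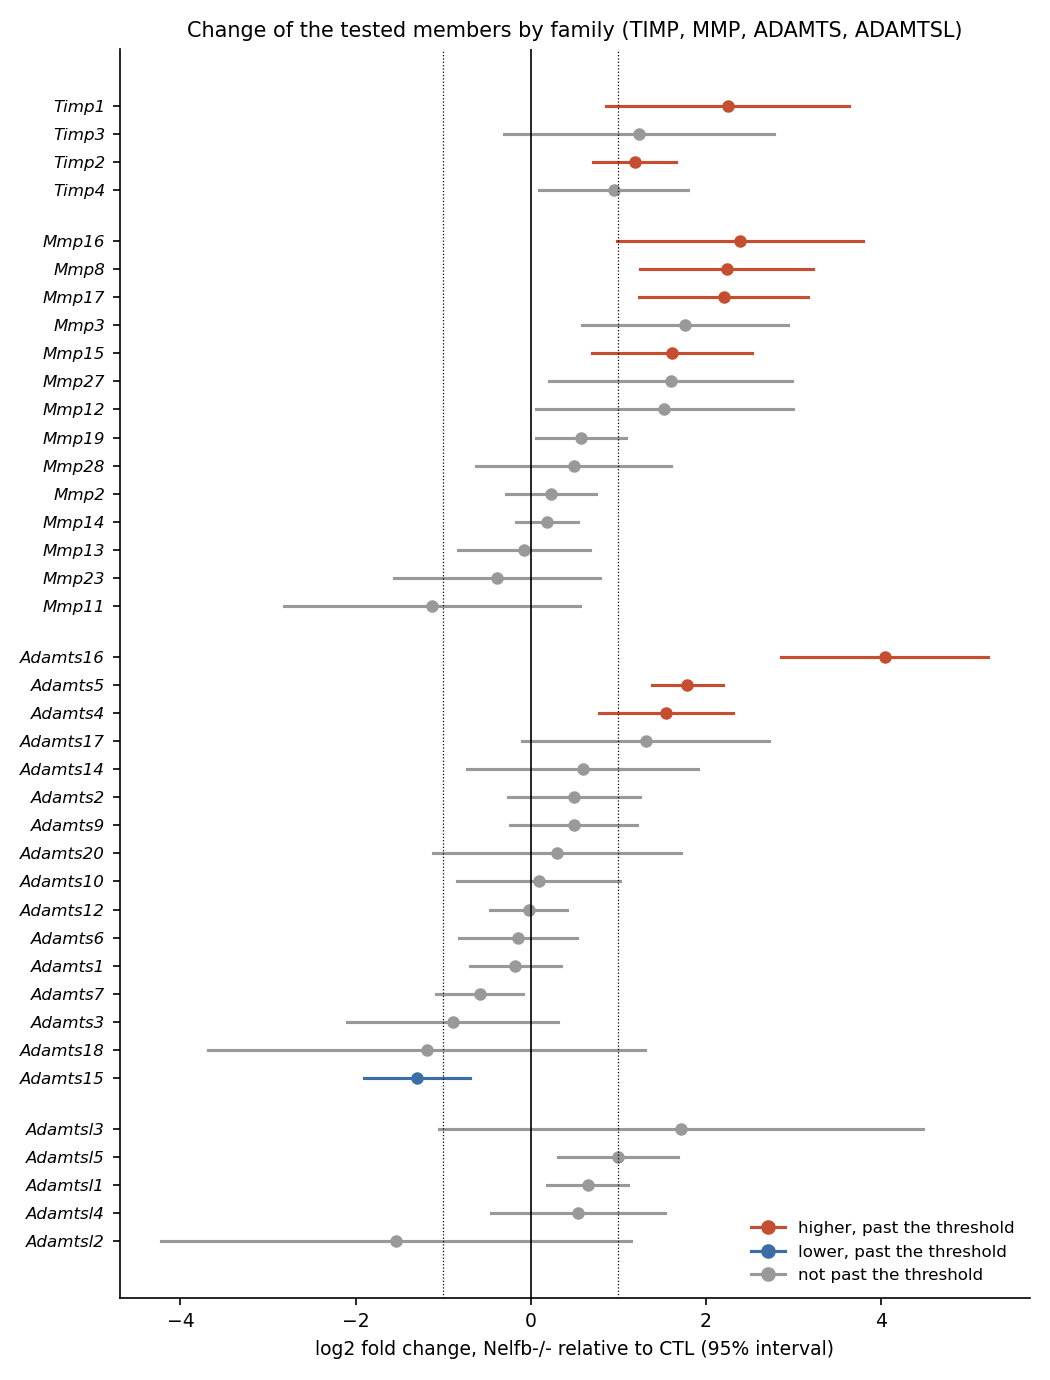
Log2 fold change of each of the 39 tested members in Nelfb-/- relative to CTL cells (x axis), grouped by family from top to bottom; points are limma estimates from 3 libraries per group, lines are 95% intervals and dotted lines mark a 2-fold change. The 9 members past the threshold upwards lie between 1.18 (Timp2) and 4.04 (Adamts16), and Adamts15 at -1.30 is the 1 member past it downwards.

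All 4 TIMP genes had higher means in Nelfb-/- cells, and Timp1 and Timp2 passed the threshold. Timp2 (ENSMUSG00000017466.9, chromosome 11 from 118301069 to 118355740, GRCm38 here and throughout), the inhibitor that also helps Mmp14 to activate Mmp2, was measured at 248, 203 and 302 CPM in the CTL libraries and, in Nelfb-/- libraries, 602, 492 and 604 CPM. The groups did not overlap, and the lowest Nelfb-/- library lay well above CTL 3. Timp2 rose by 1.18 on the log2 scale (SE 0.20, limma, adjusted p = 0.0138). Timp2 was not called without CTL 1, CTL 2 or Nelfb-/- 3, and its log2 change lay between 1.04 and 1.33 when 1 library was left out, with an adjusted p of at most 0.0729 over all 17 alternatives.

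Timp1 (ENSMUSG00000001131.11, chromosome X from 20870166 to 20874735), a secreted inhibitor of most soluble MMPs, had 14.6, 15.1 and 53.9 CPM across the CTL libraries against 64.7, 158 and 126 CPM across the Nelfb-/- libraries. All Nelfb-/- libraries lay above all CTL libraries, but CTL 3 and Nelfb-/- 1 came close to each other. Timp1 rose by 2.25 on the log2 scale (SE 0.58, limma, adjusted p = 0.0458). The call was lost without CTL 1, CTL 2, Nelfb-/- 2 or Nelfb-/- 3, with log2 changes between 1.93 and 2.87 and an adjusted p of up to 0.151 when 1 library was left out, and without an abundance trend in the variances (limma, adjusted p = 0.0635). The summed fibroblast markers given above had the same 2 libraries between the others, and their part in the Timp1 result was not tested.

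Timp3 (chromosome 10 from 86300372 to 86349506), the inhibitor that is bound to the matrix, was at 101, 97.8 and 183 CPM in the CTL libraries and, in Nelfb-/- libraries, 101, 445 and 524 CPM. Nelfb-/- 1 was within the CTL range, whereas Nelfb-/- 2 and 3 were above it. The log2 change of Timp3 was 1.23 (SE 0.64) and did not pass the test (limma, adjusted p = 0.238). Without Nelfb-/- 1 it was 1.99 and passed (limma, adjusted p = 0.018), and over all alternatives the adjusted p lay between 3.62e-05 and 0.541. Timp4 (chromosome 6 from 115241892 to 115252205) had 6.85, 5.55 and 14.1 CPM across the CTL libraries against 16.7, 16.8 and 13.7 CPM across the Nelfb-/- libraries, with an overlap through CTL 3. Its log2 change of 0.95 (SE 0.35, limma, adjusted p = 0.121) became 1.34 and passed when CTL 3 was left out (limma, adjusted p = 0.0111). Timp1, Timp3 and Timp4 each lie within a synapsin gene on the other strand. Syn2, which holds Timp4, was at 14.5, 18.4 and 6.15 CPM in the CTL libraries and, in Nelfb-/- libraries, 77.2, 106 and 77.3 CPM. Syn1, which holds Timp1, had 1.21 to 1.36 CPM in CTL and 1.59 to 2.56 CPM in Nelfb-/- libraries. Syn3, which holds Timp3, had 0.217 to 0.431 and 0.773 to 1.51 CPM, so that both lay far below the Timp gene they hold. Whether the reads were counted by strand is not given in the sources used here. Reads of both genes can therefore not be told apart, which matters most at Timp4.

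**Figure D2:**
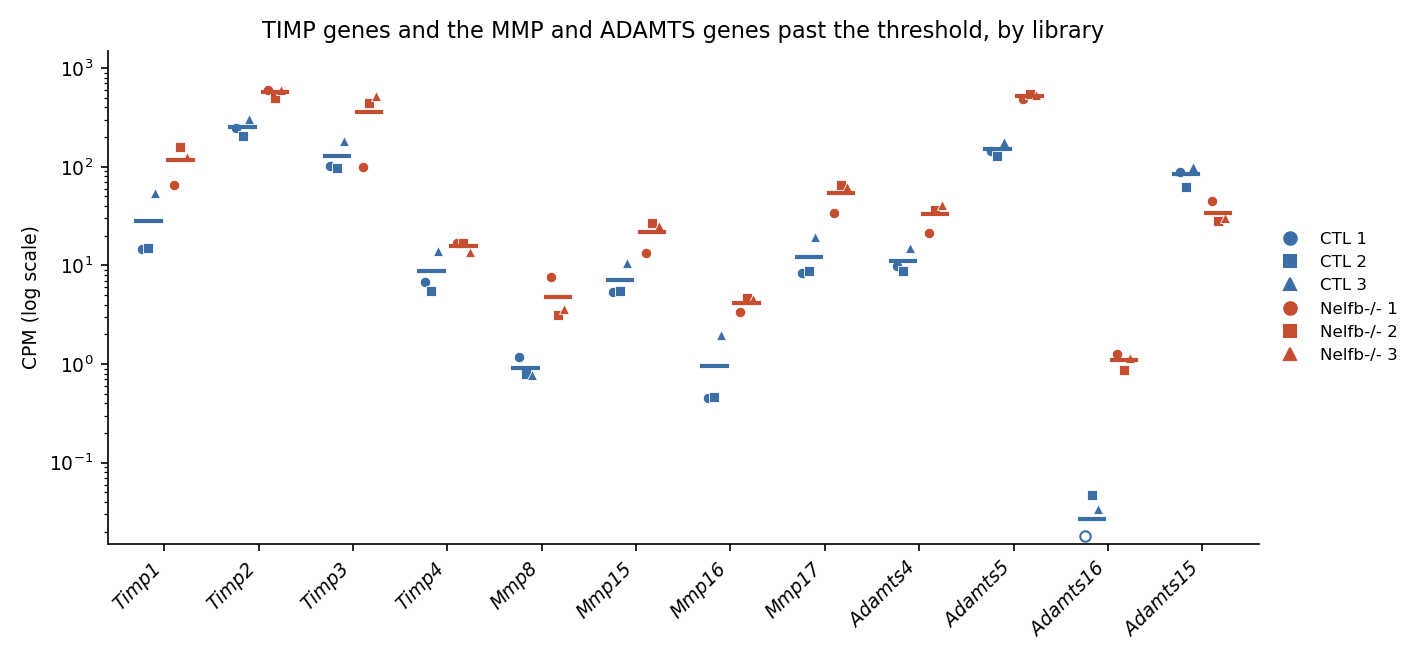
CPM on a log axis (y axis) of the 4 Timp genes and of the Mmp and Adamts genes past the threshold in each library; symbols stand for replicates 1, 2 and 3, colours for CTL and Nelfb-/- cells, short lines for group means, and the open symbol for a value of 0 (Adamts16 in CTL 1), which is drawn at the foot of the axis. The groups are apart at Adamts5, Adamts16 and Adamts15, CTL 3 and Nelfb-/- 1 lie close together at Timp1, and Nelfb-/- 1 lies among the CTL libraries at Timp3.

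The membrane-type MMPs held 3 of the 4 Mmp genes that rose. Mmp17 (ENSMUSG00000029436.9, chromosome 5 from 129584169 to 129611099), which is held at the cell surface by a lipid anchor, was at 8.34, 8.73 and 19.3 CPM across the CTL libraries against 34.0, 65.7 and 61.9 CPM across the Nelfb-/- libraries. The groups were apart, with CTL 3 the highest of CTL and Nelfb-/- 1 the lowest of Nelfb-/- cells. Mmp17 rose by 2.20 on the log2 scale (SE 0.40, limma, adjusted p = 0.0173). Mmp15 (ENSMUSG00000031790.8, chromosome 8 from 95352268 to 95375080), which spans the membrane, had 5.32, 5.51 and 10.6 CPM in the CTL libraries and, in Nelfb-/- libraries, 13.4, 26.9 and 24.9 CPM, and the order of the libraries was again CTL 3 below Nelfb-/- 1. Mmp15 rose by 1.61 (SE 0.38, limma, adjusted p = 0.0355).

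Mmp16 (ENSMUSG00000028226.15, chromosome 4 from 17852893 to 18119145), another membrane-spanning protease, was near the filter in CTL with 0.451, 0.467 and 1.97 CPM, and had 3.37, 4.66 and 4.53 CPM in Nelfb-/- cells. CTL 3 was the highest of CTL and Nelfb-/- 1 the lowest of Nelfb-/- cells, and the groups did not overlap. Mmp16 rose by 2.39 (SE 0.59, limma, adjusted p = 0.0399). The calls of Mmp15 and Mmp17 were lost without CTL 1, CTL 2, Nelfb-/- 2 or Nelfb-/- 3, with log2 changes of 1.43 to 1.93 and of 1.99 to 2.59 and an adjusted p of up to 0.135 and 0.0798. The call of Mmp16 held without CTL 3 but not without any of the other 5 libraries, with log2 changes of 2.04 to 3.06 and an adjusted p of up to 0.140, and it was also lost under quantile normalization (limma, adjusted p = 0.0516).

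Mmp14, the membrane-type MMP that activates Mmp2, had a far higher level per kb of exon than these and was nearly level, with 316, 295 and 351 CPM across the CTL libraries against 382, 336 and 373 CPM across the Nelfb-/- libraries. Its groups overlapped between CTL 3 and Nelfb-/- 2, and the 95% interval of its log2 change of 0.18 ran from -0.17 to 0.54, within a 2-fold change either way (limma, adjusted p = 0.438). Timp2 per Mmp14 was 0.785, 0.689 and 0.861 in the CTL libraries and, in Nelfb-/- libraries, 1.58, 1.46 and 1.62 as ratios of CPM. These ratios did not overlap, and an exact two-sided permutation test gave p = 0.1, the smallest value that 3 against 3 libraries allow. Since Timp2 was already called and Mmp14 was nearly level, the ratio is no separate support.

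The gelatinases lay at opposite ends of the family in their level per kb of exon. Mmp2, which cuts denatured collagen and basement membrane collagen, had 464, 388 and 284 CPM across the CTL libraries against 458, 444 and 404 CPM across the Nelfb-/- libraries. CTL 3 was the lowest library and the groups overlapped, with a log2 change of 0.23 (95% interval -0.29 to 0.74, limma, adjusted p = 0.506). Mmp9, the other gelatinase, was below the filter with 0, 2 and 2 reads in the CTL libraries and, in Nelfb-/- libraries, 6, 21 and 21 reads. All 3 Nelfb-/- libraries lay above the CTL libraries, and the ratio of the summed reads at equal depth was 14.0 with a 95% interval of 5.11 to 53.3 that covers counting error only.

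Mmp11, Mmp19, Mmp23 and Mmp28, which lie outside the run of Mmp genes on chromosome 9, were not called. Mmp11, a stromelysin first known from stromal cells, was at 287, 304 and 61.0 CPM across the CTL libraries against 150, 48.9 and 69.1 CPM across the Nelfb-/- libraries, so that CTL 3 lay with Nelfb-/- 2 and 3 and Nelfb-/- 1 lay between. Its log2 change of -1.13 (SE 0.71, limma, adjusted p = 0.320) was -1.89 without CTL 3, where it passed (limma, adjusted p = 0.0428), and over all alternatives the adjusted p lay between 0.000119 and 0.632. Mmp11 shares 3367 bases with Chchd10 on the other strand, which had 282 to 422 CPM in the CTL libraries and, in Nelfb-/- libraries, 28.5 to 62.1 CPM. Mmp19 had 160 to 247 CPM across the CTL libraries against 244 to 325 CPM across the Nelfb-/- libraries, with an overlap of CTL 3 and Nelfb-/- 1 (log2 change 0.57, limma, adjusted p = 0.122). Mmp28 had 14.6 to 16.5 CPM in the CTL libraries and, in Nelfb-/- libraries, 9.90, 32.7 and 32.3 CPM, and its log2 change of 0.49 (limma, adjusted p = 0.507) became 1.06 and passed without Nelfb-/- 1 (limma, adjusted p = 0.0123). Mmp23 overlapped between the groups with a log2 change of -0.38.

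Mmp13, Mmp12, Mmp3, Mmp8 and Mmp27 lie in this order on chromosome 9 from 7272514 to 7581885, a stretch of 309372 bases in which Mmp8 and Mmp27 are 2910 bases apart. Mmp8 rose, Mmp12, Mmp3 and Mmp27 had log2 changes over 1 that missed the threshold, and Mmp13 was level. Mmp8 (ENSMUSG00000005800.3, chromosome 9 from 7558456 to 7568485), a collagenase best known from neutrophils, was at 1.17, 0.793 and 0.782 CPM across the CTL libraries against 7.59, 3.14 and 3.59 CPM across the Nelfb-/- libraries. The groups were apart, and Nelfb-/- 1 was the highest library. Mmp8 rose by 2.24 (SE 0.41, limma, adjusted p = 0.0174). Leaving out CTL 2 or Nelfb-/- 3 ended the call, with log2 changes of 1.85 to 2.48 and an adjusted p of up to 0.0695.

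Mmp3, the stromelysin of this run, had 1.08, 4.01 and 2.31 CPM in the CTL libraries and, in Nelfb-/- libraries, 10.1, 6.05 and 6.73 CPM. The groups did not overlap, and the log2 change of 1.76 (SE 0.49) missed the threshold (limma, adjusted p = 0.0579), which it passed with a pseudocount of 1 CPM (log2 change 1.37, limma, adjusted p = 0.0473). Mmp27 had 5.01, 4.25 and 3.20 CPM across the CTL libraries against 32.0, 6.81 and 8.81 CPM across the Nelfb-/- libraries, and again Nelfb-/- 1 was far above the other libraries (log2 change 1.60, SE 0.58, limma, adjusted p = 0.113). Without Nelfb-/- 1 the log2 change of Mmp27 was 0.92, and with CTL 3 and Nelfb-/- 1 both left out it was 0.74. Mmp12, the macrophage elastase, had 23.5, 8.26 and 4.86 CPM in the CTL libraries and, in Nelfb-/- libraries, 45.4, 28.2 and 17.8 CPM, with CTL 1 above Nelfb-/- 3 (log2 change 1.53, SE 0.61, limma, adjusted p = 0.143). With 1 library left out the log2 change of Mmp12 was 1.02 (without CTL 3) to 2.15 (without CTL 1), and without both CTL 3 and Nelfb-/- 1 it was 0.68. A block for the replicate number gave calls of Mmp12 and Mmp27, though whether these numbers pair the libraries is not known. Mmp13, a collagenase of fibroblasts and bone, had 3.47, 5.55 and 3.06 CPM across the CTL libraries against 3.84, 2.91 and 4.49 CPM across the Nelfb-/- libraries. Its groups overlapped fully, with a log2 change of -0.08 (95% interval -0.83 to 0.68, limma, adjusted p = 0.892).

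Macrophage markers were also higher in Nelfb-/- cells. Of 8 markers all were in the table, none was at or below the floor in any library, and 7 rose in Nelfb-/- cells. Their summed level was 652, 344 and 166 CPM in the CTL libraries and, in Nelfb-/- libraries, 5166, 1649 and 2810 CPM. This sum was highest in Nelfb-/- 1 as for Mmp8, Mmp12, Mmp3 and Mmp27. Among CTL libraries it was highest in CTL 1 as for Mmp8, Mmp12 and Mmp27, whereas Mmp3 was lowest there. The endothelial and skeletal muscle sums were also highest in CTL 1 (10.4 and 10.4 CPM) and in Nelfb-/- 1 (21.3 and 44.2 CPM). Melanocyte markers peaked in Nelfb-/- 1 too (72.1 CPM), whereas fibroblast, adipocyte, keratinocyte and pericyte sums were lowest there among Nelfb-/- libraries. Csf1r, the receptor that macrophages need to survive, had 12.3 to 22.6 CPM across the CTL libraries against 87.0 to 206 CPM across the Nelfb-/- libraries. Of 7 neutrophil markers 4 were in the table, with sums of 0.442 to 2.43 CPM in the CTL libraries and, in Nelfb-/- libraries, 1.02 to 3.61 CPM. The part of macrophages in the change of these Mmp genes was not tested.

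**Figure D3:**
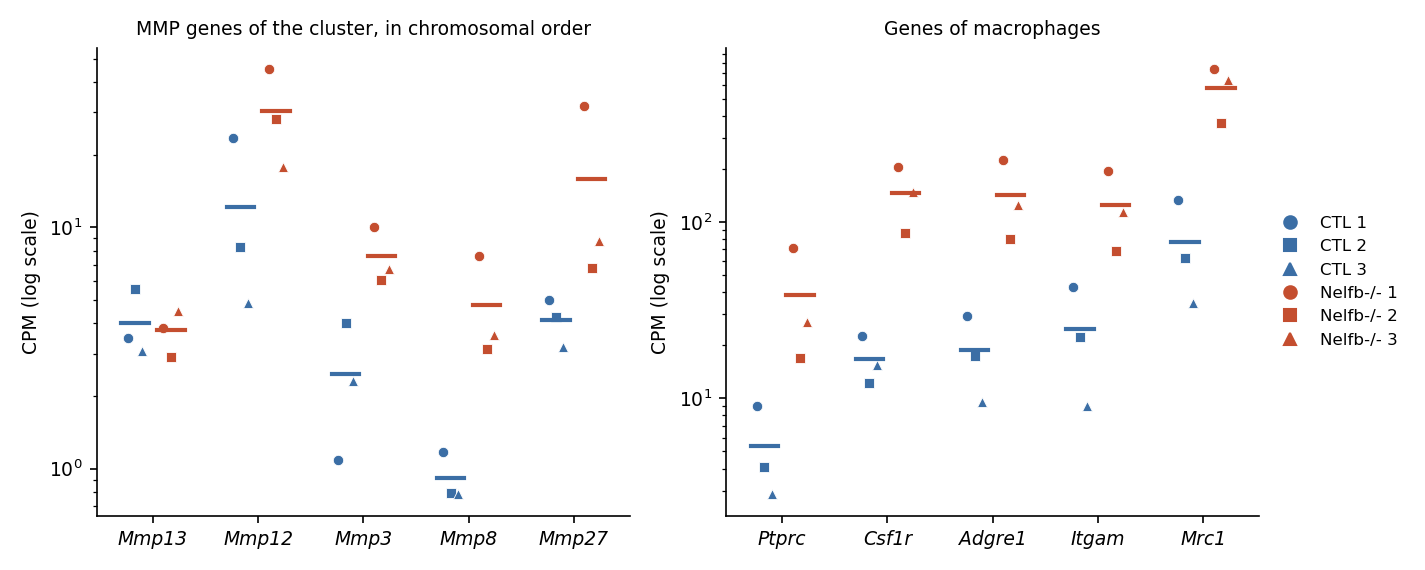
CPM on log axes of the 5 Mmp genes of the chromosome 9 run in their order along the chromosome (left) and of 5 of the 8 macrophage markers (right); symbols stand for replicates 1, 2 and 3, colours for CTL and Nelfb-/- cells, and short lines for group means. Nelfb-/- 1 is the highest library at Mmp12, Mmp3, Mmp8 and Mmp27 and at all 5 markers, whereas the groups overlap at Mmp13.

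Among the proteoglycanases of the ADAMTS family, which cut aggrecan, versican and similar proteins, Adamts5 and Adamts4 rose and Adamts15 fell. Adamts5 (ENSMUSG00000022894.6, chromosome 16 from 85856173 to 85901828), the main aggrecanase of mouse cartilage and a protease of versican, was at 146, 130 and 180 CPM across the CTL libraries against 488, 543 and 529 CPM across the Nelfb-/- libraries. The libraries of each group lay close together, and CTL 3 and Nelfb-/- 1 did not stand out. Adamts5 rose by 1.79 on the log2 scale (SE 0.17, limma, adjusted p = 0.00399), from 152 ± 25.6 to 520 ± 28.6 CPM (SD, n = 3). It was called under all 17 alternatives, with log2 changes of 1.68 to 1.92 when 1 library was left out.

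Adamts1, another versican-cutting protease, lies 53059 bases from Adamts5 on the same strand of chromosome 16 and was level. It had 525, 581 and 367 CPM in the CTL libraries and, in Nelfb-/- libraries, 468, 398 and 414 CPM. The groups overlapped, with a log2 change of -0.18 (95% interval -0.70 to 0.34, limma, adjusted p = 0.611), apart from the interval of Adamts5 of 1.39 to 2.19. The ratio of Adamts5 to Adamts1 in CPM was 0.278, 0.224 and 0.491 across the CTL libraries against 1.04, 1.37 and 1.28 across the Nelfb-/- libraries, without overlap (exact two-sided permutation test, p = 0.1, the smallest value that can be reached). As Adamts5 was already called and Adamts1 was level, this ratio is no separate support either.

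Adamts4 (ENSMUSG00000006403.13, chromosome 1 from 171250421 to 171260637), the other classical aggrecanase, had 9.88, 8.68 and 14.9 CPM in the CTL libraries and, in Nelfb-/- libraries, 21.2, 36.8 and 41.2 CPM. CTL 3 was the highest of CTL and Nelfb-/- 1 the lowest of Nelfb-/- cells, without overlap. Adamts4 rose by 1.55 (SE 0.32, limma, adjusted p = 0.0247). The call was lost without CTL 1, CTL 2, Nelfb-/- 2 or Nelfb-/- 3, with log2 changes of 1.36 to 1.84 and an adjusted p of up to 0.100.

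Adamts15 (ENSMUSG00000033453.8, chromosome 9 from 30899155 to 30922452), a versican-cutting protease of the same group, went the other way, with 89.2, 62.7 and 101 CPM in the CTL libraries and, in Nelfb-/- libraries, 44.7, 28.1 and 29.9 CPM. Every Nelfb-/- library was below every CTL library. Adamts15 fell by 1.30 on the log2 scale (SE 0.25, limma, adjusted p = 0.0203). The call was lost without CTL 1, Nelfb-/- 2 or Nelfb-/- 3, with log2 changes of -1.51 to -1.16 and an adjusted p of up to 0.0908. Adamts8, which lies 20109 bases away on the other strand, was below the filter with 0, 0 and 3 reads across the CTL libraries against 2, 7 and 13.7 reads across the Nelfb-/- libraries, the last of them not a whole number. Adamts9 had 42.0 to 72.0 CPM in the CTL libraries and, in Nelfb-/- libraries, 50.02 to 88.2 CPM (log2 change 0.49, limma, adjusted p = 0.311), and Adamts20 stayed under 3 CPM in all libraries.

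Adamts16 (ENSMUSG00000049538.14, chromosome 13 from 70727802 to 70841811), a protease known from the gonad and kidney, was near absent in CTL. It had 0, 1 and 1 reads across the CTL libraries against 27, 15 and 28 reads across the Nelfb-/- libraries, or 0.873 to 1.28 CPM there. All CTL libraries were at or under the floor and all Nelfb-/- libraries were above it. Adamts16 was called by limma with a fitted log2 change of 4.04, but since it passed the filter only through the Nelfb-/- libraries its call is no independent support for a difference. It fell below the filter without Nelfb-/- 1 or Nelfb-/- 3. The ratio of the summed reads at equal depth was 40.7, with a 95% interval of 10.9 to 343 for counting error only, and with a pseudocount of 1 CPM the fitted log2 change was 1.03.

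The procollagen N-proteinases Adamts2, Adamts3 and Adamts14, which trim fibrillar collagens before these assemble, were not called by limma. Of the 3, 0 had an unadjusted p under 0.05, where 32.5% of all genes tested did. Adamts2 had the highest level of them per kb of exon, with 261, 204 and 293 CPM in the CTL libraries and, in Nelfb-/- libraries, 221, 433 and 452 CPM. Nelfb-/- 1 lay in the CTL range and the other Nelfb-/- libraries above it (log2 change 0.49, limma, adjusted p = 0.327). Col1a1, their best known substrate, was likewise at 1673, 1452 and 7343 CPM across the CTL libraries against 2727, 11073 and 12571 CPM across the Nelfb-/- libraries. Adamts12 and Adamts7, which cut cartilage oligomeric matrix protein, had log2 changes of -0.02 and -0.58. Adamts7 had 6.49 to 9.11 CPM in the CTL libraries and, in Nelfb-/- libraries, 4.89 to 5.43 CPM, without overlap but not called (limma, adjusted p = 0.107), and it shares 6045 bases with Tbc1d2b on the other strand, at 67.2 to 74.7 CPM across the CTL libraries against 139 to 141 CPM across the Nelfb-/- libraries. Adamts3 was at 2.75, 1.35 and 2.72 CPM in the CTL libraries and, in Nelfb-/- libraries, 0.616, 1.86 and 1.31 CPM, overlapping with a log2 change of -0.89 (limma, adjusted p = 0.274). Adamts14 was at 3.45 to 13.4 CPM across the CTL libraries against 5.83 to 11.3 CPM across the Nelfb-/- libraries, also overlapping (log2 change 0.59, limma, adjusted p = 0.5001). The log2 change of Adamts14 was 0.23 without CTL 2 and 1.20 without CTL 3, and with CTL 3 and Nelfb-/- 1 both left out it was 1.48 and passed (limma, adjusted p = 0.000879).

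Of the remaining Adamts genes, Adamts17 had a log2 change of 1.31 (SE 0.59, limma, adjusted p = 0.178), with 0.451, 1.21 and 1.63 CPM in the CTL libraries and, in Nelfb-/- libraries, 1.42, 4.02 and 2.65 CPM. CTL 3 was the 1 CTL library within the Nelfb-/- range. The log2 change of Adamts17 was 0.80 without CTL 1 and 1.70 without Nelfb-/- 1, and with CTL 3 and Nelfb-/- 1 both left out it was 2.07 and passed (limma, adjusted p = 0.0129). Adamts18 had 1.26, 1.91 and 11.03 CPM across the CTL libraries against 0.427, 1.22 and 3.96 CPM across the Nelfb-/- libraries, with CTL 3 the highest of all libraries (log2 change -1.19, limma, adjusted p = 0.475). With 1 library left out the log2 change of Adamts18 was -1.98 (without Nelfb-/- 3) to -0.26 (without CTL 3), it was -0.44 without Nelfb-/- 1, and with CTL 3 and Nelfb-/- 1 both left out it turned to 0.49. Adamts6 and Adamts10 had log2 changes of -0.15 and 0.09. Adamts19 was below the filter with 0, 1 and 24 reads in the CTL libraries and, in Nelfb-/- libraries, 0, 3 and 13 reads.

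The ADAMTSL proteins bind to microfibrils of the matrix. Adamtsl5 was at 19.8, 20.8 and 32.5 CPM across the CTL libraries against 66.0, 36.4 and 44.6 CPM across the Nelfb-/- libraries, apart and close to the limits (log2 change 0.997, SE 0.29, limma, adjusted p = 0.0626). Without CTL 3 it was 1.22 and passed (limma, adjusted p = 0.0299), and over all alternatives the adjusted p lay between 0.000984 and 0.191. Adamtsl1 was at 13.1, 13.9 and 19.3 CPM in the CTL libraries and, in Nelfb-/- libraries, 22.3, 25.8 and 23.4 CPM, also apart (log2 change 0.65, SE 0.19, limma, adjusted p = 0.0673). Adamtsl4 was at 13.7 to 28.9 CPM across the CTL libraries against 18.2 to 43.1 CPM across the Nelfb-/- libraries, overlapping, with a log2 change of 0.54 (limma, adjusted p = 0.415). Adamtsl2 and Adamtsl3 had wide spreads, from 0.379 to 17.9 CPM and from 0.0451 to 1.56 CPM, with log2 changes of -1.54 and 1.71 (limma, adjusted p = 0.391 and 0.353). The log2 change of Adamtsl2 ran from -2.30 (without Nelfb-/- 3) to -0.38 (without Nelfb-/- 1), was -0.76 without CTL 3, and turned to 0.40 with CTL 3 and Nelfb-/- 1 both left out. Adamtsl3 passed without CTL 3 at 2.997 (limma, adjusted p = 0.0359), but its log2 change was as low as 0.92 with another library left out. Over all alternatives its adjusted p in limma lay between 0.00187 and 0.699.

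Levels were compared between genes per kb of exon. In CTL the highest levels were those of Mmp2 (112 CPM per kb), Adamts1 (92.6), Mmp11 (78.1), Timp2 (64.5), Mmp19 (54.3) and Mmp14 (53.8). In Nelfb-/- cells Timp2 (145 CPM per kb) and Timp1 (131) came first, ahead of Mmp2 (129), Adamts1 (80.5) and Mmp19 (79.7), and Timp1, Timp2 and Mmp2 in Nelfb-/- cells do not differ beyond the spread of their libraries. Timp1 had held rank 7 of 42 in CTL with 31.4 CPM per kb, and Adamts5 moved from rank 11 with 14.1 to rank 7 with 48.2. The called members thus covered a wide range of levels, from 0.161 CPM per kb for Adamts16 in Nelfb-/- cells to 145 for Timp2.

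Summed over the family, the Timp level was 93.8, 82.1 and 163 CPM per kb across the CTL libraries against 243, 362 and 364 across the Nelfb-/- libraries. The Mmp sum was 360, 342 and 264 CPM per kb in the CTL libraries and, in Nelfb-/- libraries, 368, 343 and 332, and the Adamts sum was 184, 182 and 168 across the CTL libraries against 196, 220 and 224 across the Nelfb-/- libraries. The Timp and Adamts sums were thus apart between the groups, and the Mmp sums overlapped. The gap between the Adamts sums rested on Adamts5, whose mean went from 14.1 to 48.2 CPM per kb. Without Adamts5 the Adamts sums of the groups overlap. Timp per Mmp was 0.261, 0.240 and 0.618 in the CTL libraries and, in Nelfb-/- libraries, 0.659, 1.05 and 1.10, with CTL 3 just under Nelfb-/- 1. These sums describe transcripts and carry no test, and protein or activity was not measured.

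**Figure D4:**
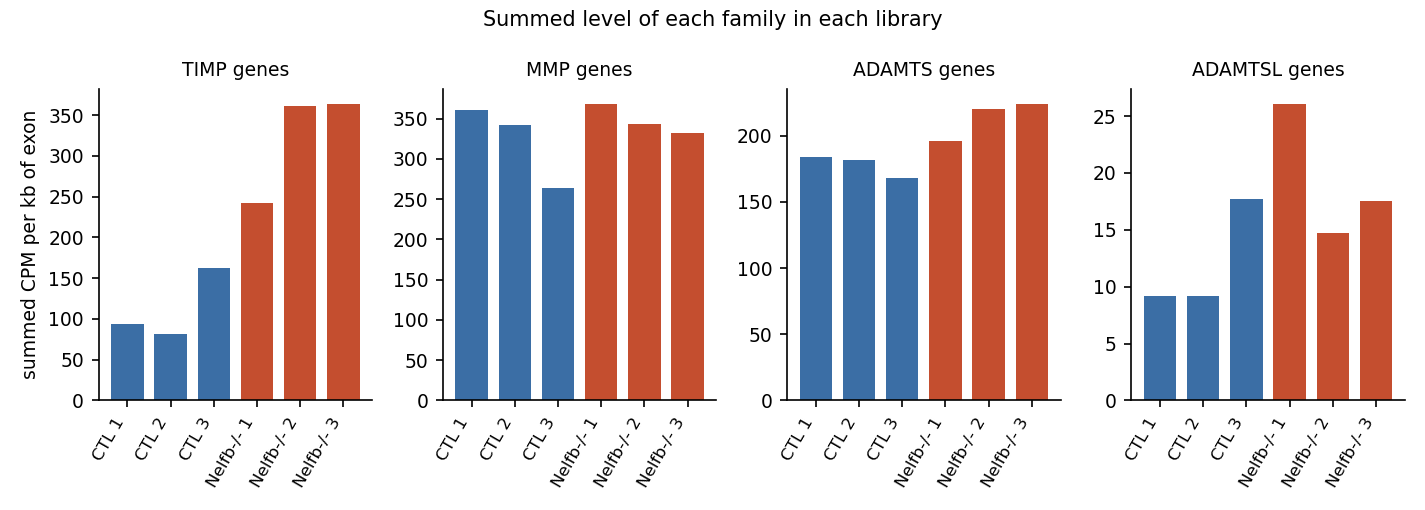
Summed CPM per kb of exon (y axis, each panel with its own scale from 0) of the Timp, Mmp, Adamts and Adamtsl genes in each of the 6 libraries, CTL in blue and Nelfb-/- in red. The Timp sum is 82.1 to 163 in CTL and 243 to 364 in Nelfb-/- libraries, whereas the Mmp sums overlap at 264 to 360 and 332 to 368.

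Genes that act on the proteases were looked at in 4 lists. Of 16 tested genes that activate, recruit, clear or restrain them, 3 rose and 1 fell. Plat, the tissue plasminogen activator, had 5.86, 4.99 and 11.3 CPM across the CTL libraries against 147, 169 and 170 CPM across the Nelfb-/- libraries, far apart (log2 change 4.54, SE 0.31, limma, adjusted p = 0.00318). Plau, the urokinase that makes plasmin at the cell surface, and its receptor Plaur had log2 changes of 1.22 and 1.2 (limma, adjusted p = 0.0228 and 0.0227). Furin, the convertase that removes propeptides of membrane-type MMPs and ADAMTS proteins, was at 110 to 118 CPM in the CTL libraries and, in Nelfb-/- libraries, 191 to 193 CPM, a log2 change of 0.76 under the 2-fold limit (limma, adjusted p = 0.0105). Pcsk5, another convertase of this kind, had 48.1 to 63.1 CPM in the CTL libraries and 79.7 to 124 CPM in Nelfb-/- libraries. It was apart upwards but under the 2-fold limit (log2 change 0.90, limma, adjusted p = 0.035). Pcsk6, a further one, had 27.7, 37.7 and 35.1 CPM in the CTL libraries and, in Nelfb-/- libraries, 8.68, 19.3 and 19.7 CPM, apart downwards but not called (log2 change -1.15, limma, adjusted p = 0.0679). Bsg, a surface protein known to induce MMPs in neighbouring cells, fell with a log2 change of -1.47 (limma, adjusted p = 0.0474). Reck, a membrane-bound inhibitor of MMPs, had a log2 change of 0.20, and Lrp1, which clears MMPs and ADAMTS proteins from the surroundings, had 0.24.

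Of 12 tested ADAM and astacin proteases, Bmp1, Adam10 and Adam23 rose. Bmp1, the procollagen C-proteinase, had 47.9, 52.6 and 105 CPM across the CTL libraries against 176, 442 and 402 CPM across the Nelfb-/- libraries (log2 change 2.29, limma, adjusted p = 0.0203). Adam10, a sheddase of the cell surface that Timp1 and Timp3 block, had 61.5 to 91.8 CPM in the CTL libraries and, in Nelfb-/- libraries, 150 to 191 CPM (log2 change 1.17, limma, adjusted p = 0.0125). Adam15 had 86.0 to 109 CPM in the CTL libraries and, in Nelfb-/- libraries, 124 to 149 CPM, apart but not called (log2 change 0.53, limma, adjusted p = 0.0584). Adam8 was at 107, 68.9 and 27.3 CPM across the CTL libraries against 683, 154 and 225 CPM across the Nelfb-/- libraries, highest in Nelfb-/- 1 like the macrophage markers (log2 change 2.29, limma, adjusted p = 0.0699).

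Of 16 tested matrix proteins that these proteases cut, Acan, Hapln1 and Ncan passed the filter only through the Nelfb-/- libraries, so that calls of Acan and Hapln1 are no independent support for a difference. Of the 13 that passed it in both groups, Tnc and Fn1 rose and 11 had a log2 change of at least 1. The groups were apart upwards at 2 of the 13 and overlapped at the others. Over all 15341 genes that passed it in both groups, 1759 had a log2 change of at least 1 and 3147 were apart upwards. Aggrecan (Acan) had 0.0902, 0.0467 and 0.680 CPM in the CTL libraries and, in Nelfb-/- libraries, 1.61, 7.04 and 7.51 CPM, so that it stayed at a low level. Tnc was at 103, 84.3 and 239 CPM across the CTL libraries against 1439, 3194 and 3621 CPM across the Nelfb-/- libraries (log2 change 4.32, limma, adjusted p = 0.00575). Versican (Vcan) had 195, 171 and 1003 CPM in the CTL libraries and, in Nelfb-/- libraries, 941, 2757 and 2457 CPM, where CTL 3 was above Nelfb-/- 1 (log2 change 2.53, limma, adjusted p = 0.0714). Nid1, a basement membrane protein, was level at -0.04.

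Of 14 tested AP-1, ETS and RUNX factors, families known to act on Mmp and Timp promoters, Runx1, Junb and Ets1 rose. Runx1 had 20.6, 21.7 and 19.6 CPM across the CTL libraries against 60.5, 78.8 and 80.5 CPM across the Nelfb-/- libraries (log2 change 1.81, limma, adjusted p = 0.00351). Junb and Ets1 had log2 changes of 1.41 and 1.11 (limma, adjusted p = 0.0367 and 0.0309), and Fos and Jun had 0.28 and 0.60 and were not called. Etv5 was at 15.3 to 28.6 CPM across the CTL libraries against 29.9 to 37.8 CPM across the Nelfb-/- libraries, apart but not called (log2 change 0.76, limma, adjusted p = 0.107). The percent called higher was 18.8 for activators and restraints, 25 for ADAM and astacin proteases and 21.4 for transcription factors, beside 7.58 over all genes tested. For matrix proteins it was 15.4 over those that passed the filter in both groups, beside 6.21 over all such genes.

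**Figure D5:**
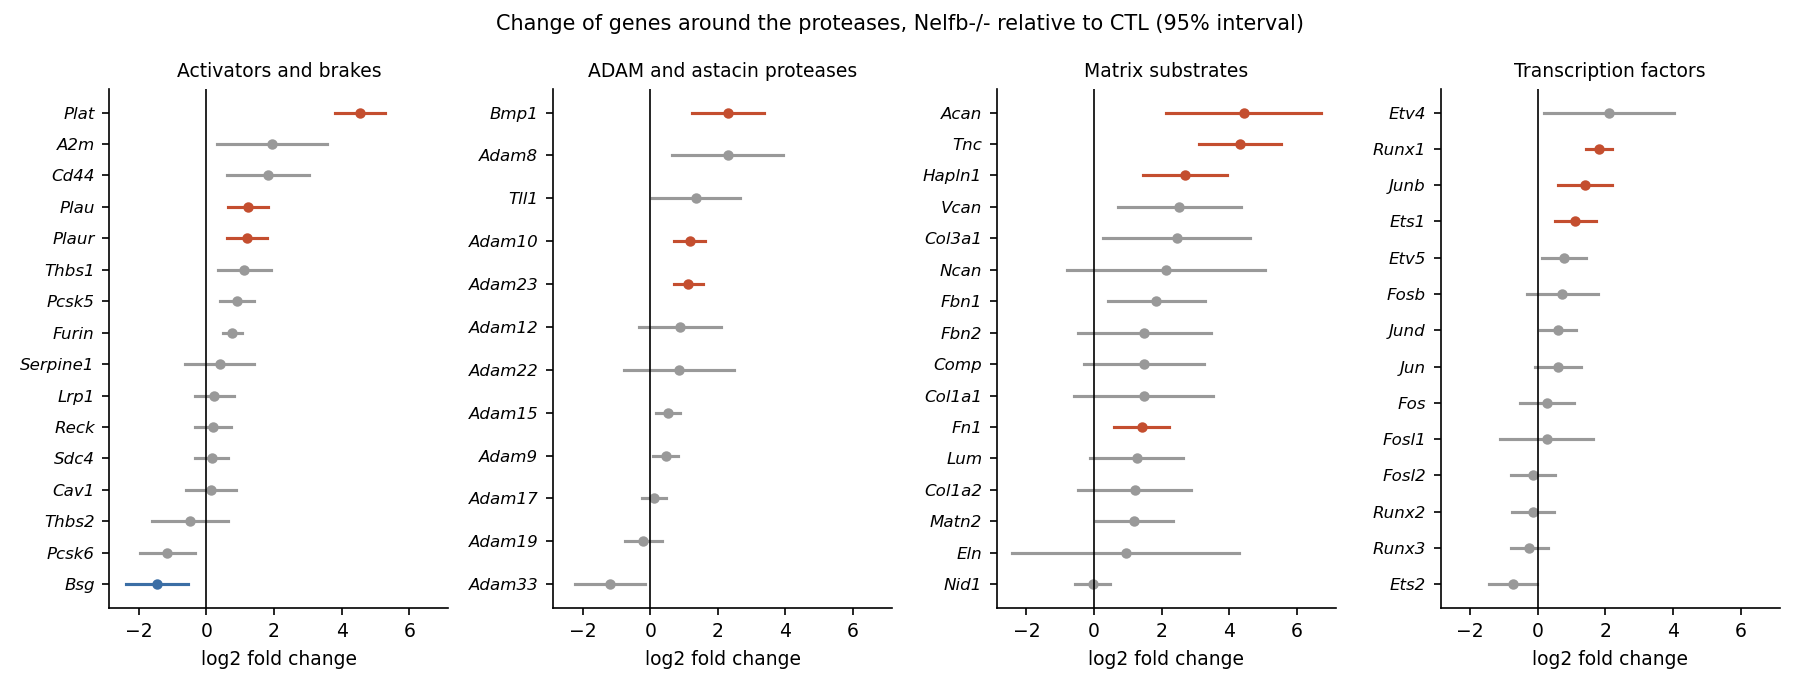
Log2 fold change in Nelfb-/- relative to CTL cells (x axis) of genes that activate or restrain the proteases, ADAM and astacin proteases, matrix proteins and transcription factors; points are limma estimates from 3 libraries per group, lines are 95% intervals, and red and blue mark genes past the threshold upwards and downwards. Plat (4.54), Acan (4.43) and Tnc (4.32) lie farthest to the right, where Acan passed the filter only through the Nelfb-/- libraries, and Bsg (-1.47) is the 1 gene past the threshold to the left.

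Markers of other cell types that a dermal culture can hold also moved. The 5 melanocyte markers had sums of 1.22 to 1.43 CPM in the CTL libraries and, in Nelfb-/- libraries, 30.3 to 72.1 CPM, and Tyr was listed at 0 in all CTL libraries. All 5 were called higher, but 4 of them passed the filter only through the Nelfb-/- libraries. Of 4 tested skeletal muscle markers 3 were called higher, Myog among them only through those libraries, and of 3 Schwann cell markers 2 rose and Mbp fell. The 1 call upwards among 5 tested endothelial markers, Emcn, and that among 3 tested keratinocyte markers, Krt14, were of genes that passed only through the Nelfb-/- libraries. Limma called 0 of 7 fibroblast markers and 0 of 5 pericyte and smooth muscle markers, of which 4 and 2 had an unadjusted p under 0.05, beside the 32.5% of all genes given above. Of 7 adipocyte markers 5 had negative log2 changes, 4 of them of at least 2-fold, with a median of -1.02, and 4 had an unadjusted p under 0.05, Adipoq, Plin1 and Cfd with negative changes and Lep with a positive one. Lep was the 1 adipocyte marker that passed the threshold. The part of these cells in the levels of the members was not tested.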

How the data were processed

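The methods name mm10 and, for the alignment, DESeq2, whereas the submitters' processing notes list STAR (2.7) and Partek (9.0.20.0202). The counting and its use of strand are not given in the sources used here. The values deposited by the authors are CPM with 0.0001 added, since without it a library adds up to 1e+06, and genes under 10 reads in every library were already absent. Values up to 20 reads came out as whole reads, within 0.02 reads, in 69.5% to 72.1% of cases, so that no count test was run.

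CPM values were multiplied by 22.3 M, the geometric mean of all depths, and log2(value + 1 read) was fitted with limma (3.58.1, R 4.3.3) using an intensity trend, with Benjamini-Hochberg adjustment over all 16252 genes tested. Fold changes of genes near the floor are understated on this scale. The methods give the replicates as biological, and the labels do not tie them to animals, so that p-values measure the spread between these libraries. Ensembl IDs and exon lengths came from GENCODE vM21 (GRCm38) by name and chromosome, which matched all 42 members, and positions from the deposited table, whose last base was 1 past the annotated end for 99.3% of matched genes. The 9 family genes, Mmp1a, Mmp1b, Mmp7, Mmp10, Mmp20, Mmp21, Mmp24, Mmp25 and Adamts13, were not analysed here.

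The members, 4 pathway lists and 10 marker lists were chosen with earlier results of these data known. Named in the text are members past the threshold, Timp genes, members with a change of at least 2-fold or groups apart, the most abundant of each group, members below the filter, and, of each pathway list, genes past the threshold or among the 4 with the smallest p. Mmp13, Mmp23, Mmp28, Adamts3, Adamts6, Adamts9, Adamts10, Adamts14, Adamts20, Adamtsl4, Pcsk5, Pcsk6, Reck, Lrp1, Adam8, Vcan, Col1a1, Nid1, Fos and Jun were added after their values were seen. Alternatives were other pseudocounts, filters, scalings and variance models, each library left out, a block for the replicate number, and, chosen after seeing the data, CTL 3 and Nelfb-/- 1 both left out.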

Additional observations from a re-analysis of the deposited data

How the results depend on the processing

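Of 17 alternatives, 16 were planned. Without moderation of the variances 684 genes were called in all, 2 members were higher (Adamts5 and Adamts16) and 0 lower. With CTL 3 and Nelfb-/- 1 both left out, 4383 genes were called, 16 members were higher, beside 17.7% of genes tested, and 2 were lower (Adamts15 and Mmp11). With 1 library left out, 426 to 2479 genes were called in all, 1 to 13 members were higher and 0 to 2 were lower, with the lowest counts without Nelfb-/- 3. Every other alternative gave 8 to 11 members higher and 1 lower. Among these, Mmp16 lost its call under quantile normalization and Timp1 without an abundance trend, and Mmp3 gained one with a pseudocount of 1 CPM. Quantile normalization gave 1014 genes higher and 834 lower in all (54.9% higher, against 67.5%) and moved the median of all genes from 0.068 to -0.068, with 8 members higher. Nelfb kept its call throughout, at -2.08 to -1.82 with 1 library left out.

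Some uncalled members changed sign, most of them near 0 but also Adamts18 and Adamtsl2, which were at -1.19 and -1.54 over all libraries. Under quantile normalization Adamts10 was at -0.0176 and Adamts20 at -0.0407. With CTL 3 and Nelfb-/- 1 both left out, Adamts12 was at 0.18, Adamts10 at -0.52, Adamts18 at 0.49, Adamtsl2 at 0.40, Mmp2 at -0.0041 and Mmp23 at 0.47. With 1 library left out, ranges were -0.14 to 0.12 for Adamts12, -0.26 to 0.38 for Adamts10, -0.43 to 0.0051 for Adamts6, -0.16 to 0.92 for Adamts20, -0.25 to 0.18 for Mmp13 and -0.66 to 0.094 for Mmp23. The cause was not tested.

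The labels share replicate numbers between the groups, and the correlations of deviations were 0.515, -0.395 and 0.518 for numbers 1, 2 and 3. With 3 libraries per group these values cannot show whether the numbers pair the libraries, and the main fit took them as unpaired. A replicate block gave 2175 genes in all, with 11 members higher, Mmp12 and Mmp27 among them, and 1 lower, and ended no call of a member. Depth limits Mmp9, Adamts8, Adamts16 and Adamts19, which had at most 3 reads in 2 or 3 of the CTL libraries. Intervals of 23 of the 29 uncalled members reached past a 2-fold change, and 15 of these also held 0, so that for those 15 a change of that size cannot be told from none. The intervals of Adamts1, Adamts6, Adamts12, Mmp2, Mmp13 and Mmp14 stayed within a 2-fold change.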
